A study of Anas platyrhynchos with 3 samples.

Results

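Annexins and the S100 proteins that bind them are calcium-dependent, membrane-associated proteins, and their transcripts were measured in Pekin duck (Anas platyrhynchos) bill skin by sequencing of poly(A) RNA. The genes were taken by symbol from a list of 8 annexins and 2 S100 genes, by a rule that uses symbols only. Of these 10 genes, 8 were found among the 14938 genes of the table, namely ANXA1, ANXA2, ANXA5, ANXA6, ANXA7, ANXA11, ANXA13 and S100A11, while ANXA8 and S100A6 were not analysed here. The skin came from duck embryos at embryonic day 24 to 26, from eggs kept at 37 °C, which had pierced the inner membrane of the shell and were 24 to 48 hours from hatching. The study asks how the lamellar cells of touch corpuscles, which the bill skin holds in number, sense touch. No treatment, genotype or sex is given for the 3 biological replicates, nor whether each was a single embryo or a pool. They form 1 group, so no conditions were compared, and each comparison is between genes of the same library.

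Annexins share a core of repeated helical domains that binds acidic phospholipids when calcium rises, and differ in their N-terminal ends, through which several of them bind an S100 protein. S100 proteins are small EF-hand proteins that usually act as dimers and can join a pair of annexins into a bridge between membranes. In mammalian skin, annexins and S100 proteins are known from keratinocytes, where they take part in membrane repair, in links between membrane and actin, and in the cross-linked envelope of cornified cells. Several annexins are also made by fibroblasts, vessel cells and leukocytes.

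Counted reads came to 32247700 in replicate 1, 30630039 in replicate 2 and 25268141 in replicate 3. Levels are given in FPKM, the fragments per kilobase of gene length after scaling to library depth, so that genes of different length can be compared. Of all genes, 10605 had at least 1 FPKM in every library, and the median of these stood at 13.3, 13.1 and 13.3 FPKM. Both main cell types of skin were represented. The 20 keratinocyte markers measured summed to 4964 to 5873 FPKM per library, led by the cell cycle regulator SFN, and all had at least 1 FPKM. The 22 dermal fibroblast markers summed to 4754, 8370 and 4951 FPKM, so that replicate 2 stood apart, and 19 of them were highest there. Of 13 leukocyte markers only 4 passed 1 FPKM, and their whole list summed to 20.9 to 37.1 FPKM. In bulk skin, a smaller number of cells of a type cannot be told apart from less RNA per cell.

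The 8 genes together took 0.465, 0.494 and 0.548% of summed FPKM in replicates 1, 2 and 3, a mean of 0.503 ± 0.0422% (SD, n = 3). ANXA2 was the most abundant, followed by S100A11, ANXA1, ANXA5, ANXA11, ANXA7 and ANXA6, while ANXA13 was hardly detected. Among the 7 annexins of these 8 genes, ANXA2 held 70.4, 62.8 and 66.2% of the summed FPKM. A further annexin of the tissue, ANXA4, is not in this sum. Their levels thus spanned from among the highest genes of the tissue to the limit of detection.

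**Figure D1:**
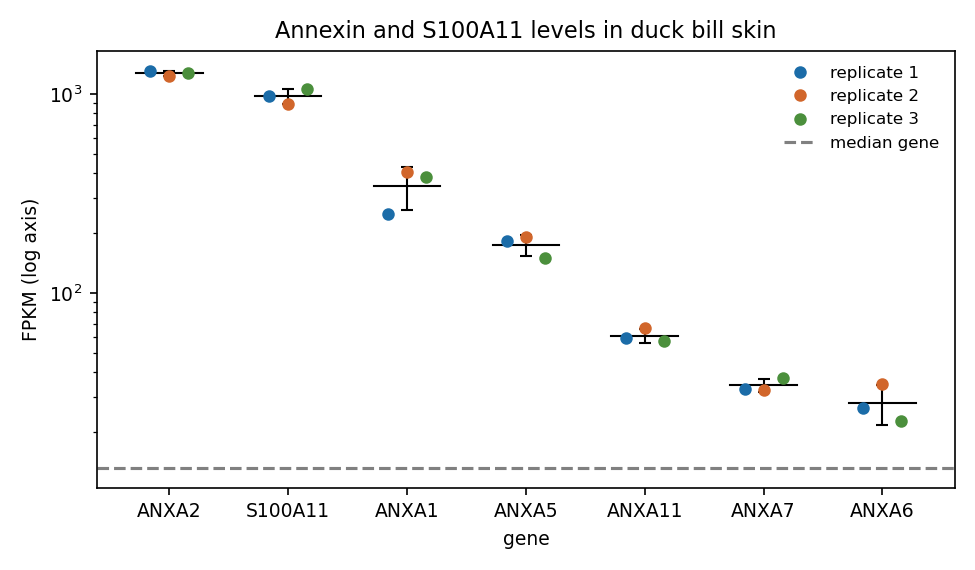
Level of 7 genes in each of the 3 libraries, in FPKM on a log axis; coloured points are replicates, black bars the mean ± SD (n = 3), and the dashed line the median gene. ANXA2 at 1230 to 1309 FPKM and S100A11 at 890 to 1059 FPKM lie far above the median gene of about 13.3 FPKM, and ANXA7 and ANXA6 overlap; ANXA13, with at most 2 reads per library, is not drawn.

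ANXA2 encodes the annexin that links the plasma membrane to cortical actin and to secretory vesicles, and in mammals forms a tetramer with S100A10. It was measured at 1309, 1230 and 1275 FPKM, from 59067, 54379 and 46748 reads. These values lay close together, with a coefficient of variation of 3.1%, and the gene ranked 74 of all 14938 by mean level. Its log2 difference from the median gene was 6.57 ± 0.087 (SE), or 95.3-fold (limma's moderated test, adjusted p = 1.97e-07).

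S100A11 encodes calgizzarin, which in mammals binds the N-terminal end of ANXA1 and becomes part of the cornified envelope of keratinocytes. It stood at 975, 890 and 1059 FPKM, from 14304, 12787 and 12618 reads. Replicate 3 was highest and replicate 2 lowest, with a coefficient of variation of 8.66%. S100A11 ranked 97 of all genes by mean level, and its level was 73-fold that of the median gene (log2 6.19 ± 0.094 SE, limma adjusted p = 2.3e-07).

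ANXA1 encodes the annexin whose N-terminal peptide acts on formyl peptide receptors and dampens inflammation in mammals, and which is also cross-linked into the cornified envelope. It was measured at 249, 405 and 382 FPKM, from 10440, 16643 and 13014 reads. Replicate 1 lay below the others, and the highest library exceeded the lowest 1.63-fold. ANXA1 was 25.3-fold above the median gene (log2 4.66 ± 0.16 SE, limma adjusted p = 1.7e-06).

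ANXA5 encodes the annexin that binds exposed phosphatidylserine, forms lattices on membranes and is used in the laboratory to stain dying cells. Its level was 183, 191 and 150 FPKM, from 9014, 9216 and 6027 reads. Replicate 3 was lowest, and replicates 1 and 2 differed little. ANXA5 was 13-fold above the median gene (log2 3.71 ± 0.11 SE, limma adjusted p = 1.3e-06).

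ANXA11, which in mammals binds the calcium sensor PDCD6 and tethers RNA granules to lysosomes, stood at 59.5, 66.5 and 57.3 FPKM. It was 4.58-fold above the median gene (log2 2.2 ± 0.096 SE, limma adjusted p = 3.9e-06). ANXA7, also called synexin, which promotes contact and fusion of membranes, was at 33, 32.8 and 37.5 FPKM and 2.58-fold above the median (log2 1.37 ± 0.093 SE, limma adjusted p = 2.1e-05). In the RefSeq gene table of the IASCAAS_PekinDuck_T2T assembly ANXA7 overlaps PPP3CB, a calcineurin subunit gene, and no source used here says how strand entered the counting. Reads of the pair may therefore not be fully separated. ANXA6, an annexin with a duplicated core that is known from endosomes and from the membranes of muscle and fibroblasts, was at 26.5, 35.1 and 22.7 FPKM. It was highest in replicate 2, with 1.54-fold between the highest and lowest library, and lay 2.08-fold above the median (log2 1.06 ± 0.14 SE, limma adjusted p = 0.00052).

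ANXA13, known in mammals from the epithelium of the intestine and kidney, had 0, 2 and 2 reads, or 0, 0.0443 and 0.0534 FPKM. A count of 0 allows up to 3 reads, which correspond to 0.0651, 0.0665 and 0.0801 FPKM for this gene in replicates 1, 2 and 3. That limit applies to the count of 0 in replicate 1, and a count of 2 lies under 3 reads in any case. Whether the 2 reads of replicates 2 and 3 exceed counting error was therefore not tested. ANXA13 transcript was hardly detected at this depth and no fold is given. Such limits cover counting error only. In the RefSeq gene table ANXA13 overlaps a long non-coding RNA gene, so reads of that pair may not be fully separated either.

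All 7 genes with at least 1 FPKM lay above the median gene and none below it in limma's moderated test, against 43.7% of all genes tested that were above and 43.6% that were below. Their levels fell between the 72.4th and the 99.3rd percentile of the genes tested, and their median was 175 FPKM, against 13.3 FPKM for all genes tested. With ANXA13 included, the median of the 8 genes was 118 FPKM, against 6.94 FPKM for all 14938 genes. ANXA13 did not enter the test because of its low level. Folds are on the scale of log2(FPKM + 0.1). The p-values set each gene's distance from the median gene against the spread between the 3 libraries, and cover no other source of error.

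**Figure D2:**
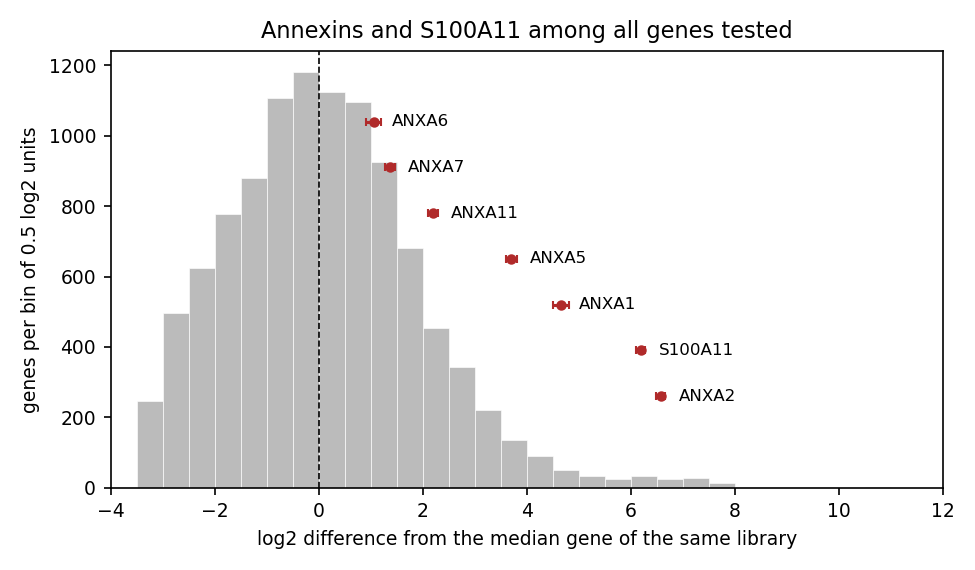
Distribution over 10605 genes of the log2 difference from the median gene of the same library (grey bars, genes per bin of 0.5), with 7 genes as red points with SE (n = 3) whose height has no meaning. All 7 lie to the right of 0, from ANXA6 at 1.06 to ANXA2 at 6.57.

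The order of the levels was largely the same in every library. Of the 21 pairs among the 7 genes, 20 had the same order in all 3 libraries, the exception being ANXA7 and ANXA6. ANXA2 exceeded S100A11 by 0.424, 0.467 and 0.268 on the log2 scale, a mean of 0.39 ± 0.1 (SD, n = 3) or 1.31-fold. S100A11 exceeded ANXA1 by 1.53 ± 0.42, or 2.88-fold, and the gap was widest in replicate 1, where ANXA1 was low. ANXA5 exceeded ANXA11 by 1.51 ± 0.11 and ANXA11 exceeded ANXA7 by 0.83 ± 0.21. These 4 gaps were larger than 2 SD between libraries.

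ANXA1 exceeded ANXA5 by 0.444, 1.08 and 1.34 on the log2 scale, with a mean of 0.96 ± 0.46 that only just passed 2 SD. Without replicate 2 it was 0.89 ± 0.64 and without replicate 3 it was 0.76 ± 0.45, both within 2 SD, so the distance between these neighbours depends on the library. ANXA7 exceeded ANXA6 by 0.315 and 0.722 in replicates 1 and 3 and was below it, at -0.0965, in replicate 2, so the pair did not differ beyond its spread (0.31 ± 0.41). With 3 libraries an exact sign-flip test cannot give a p under 0.25, so none was used for the order.

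Because levels per length and counts of reads differ, the position of S100A11 depends on the scale. Its gene model was 465 bases long, as implied by count and FPKM, against 1331 to 2254 bases for the 6 annexins with at least 1 FPKM. As counts scaled in the same way as FPKM but not divided by length, S100A11 was below ANXA2 and not apart from ANXA1. The log2 difference of ANXA1 over S100A11 was then -0.454, 0.38 and 0.0446. Per length, S100A11 exceeded ANXA1 in all 3 libraries.

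The ratio of an S100 transcript to that of its annexin was set out for pairs whose proteins bind in mammals. S100A11 stood to ANXA1 as 3.92, 2.2 and 2.78 to 1 in FPKM, a mean of 2.97 ± 0.877 (SD, n = 3). S100A11 stood to ANXA2 as 0.745, 0.724 and 0.831 to 1, a mean of 0.767 ± 0.0566. The second ratio varied less between libraries than the first, whose highest value fell in replicate 1, the library with the lowest ANXA1. S100A10, the partner of ANXA2 in mammals, had 0 reads in all 3 libraries, where the limit of 3 reads would be 0.093, 0.0979 and 0.119 CPM, or counts scaled to library size alone. No ratio to ANXA2 is therefore given for it, and whether the gene model used could collect its reads was not tested.

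The spread between libraries differed among the 7 genes. The median SD of their log2 values was 0.125, against 0.168 for all genes tested. ANXA2, with an SD of 0.045, lay at the 5.84th percentile of that spread among all genes tested, and ANXA7, ANXA11 and S100A11 between the 28.1st and 34.5th. ANXA5 lay at the 55.1st, while ANXA6, at 0.317, and ANXA1, at 0.383, lay at the 82.6th and 89th percentile. These were also the only 2 of the 7 in which the highest library exceeded the lowest more than 1.5-fold, as did 19.4% of all genes tested. For all 7, the spread was above what counting error alone gives for a gene, which was 0.433% for ANXA2 and 2.49% for ANXA6 as a coefficient of variation.

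Replicate 2, the library high in fibroblast markers, did not stand apart in all of the genes. ANXA1, ANXA5, ANXA11 and ANXA6 were highest there, 4 of 7, where 34% of all genes tested were highest in that library. ANXA6 deviated from its own mean by -0.06, 0.34 and -0.28 on the log2 scale in replicates 1, 2 and 3. The median fibroblast marker deviated by -0.24, 0.46 and -0.24 and the median keratinocyte marker by 0.05, -0.16 and 0.05. The medians of other marker lists were also high in replicate 2 and low in replicate 3, as ANXA6 was. The median marker tested deviated by 0.01, 0.35 and -0.42 for cartilage and bone, by 0.02, 0.36 and -0.34 for Merkel cells and by 0.08, 0.38 and -0.39 for sensory neurons. These medians rest on 9, 6 and 4 markers tested, of which 7, 4 and 3 were highest in replicate 2. The remaining 2, 2 and 1 were highest in replicate 1, among them SOX2 and ISL1 for Merkel cells and UCHL1 for sensory neurons. Of 9 sensory neuron markers with a row, 5 were under the minimum of 1 FPKM. Of 11 Schwann and lamellar cell markers tested, 8 were highest in replicate 2, and their median deviated by -0.09, 0.16 and -0.08. ANXA2, S100A11 and ANXA7 were lowest in replicate 2, 3 of 7, as were 36.6% of all genes tested and 16 of 20 keratinocyte markers. S100A11 deviated by 0, -0.13 and 0.12 and ANXA2 by 0.04, -0.05 and 0. The part of cell composition in these differences was not tested.

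**Figure D3:**
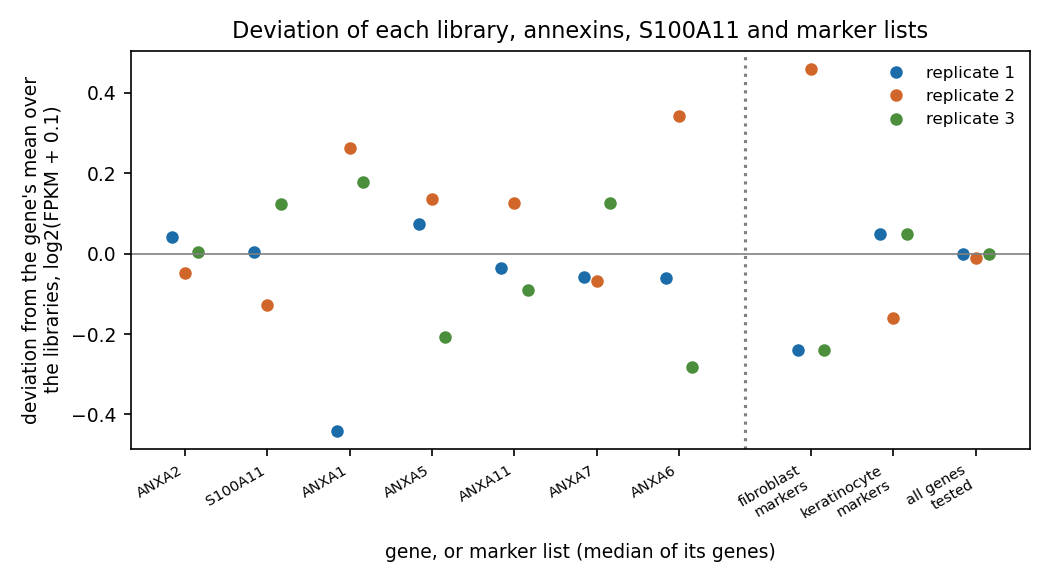
Deviation of each library (coloured points) from the gene's own mean over the 3 libraries, in units of log2(FPKM + 0.1), for 7 genes on the left and, on the right of the dotted line, for the median gene of 2 marker lists and of all genes tested. Fibroblast markers reach 0.46 in replicate 2, where ANXA6 is at 0.34, while S100A11 and keratinocyte markers are at -0.13 and -0.16; ANXA1 is lowest in replicate 1 at -0.44.

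ANXA1 deviated by -0.44, 0.26 and 0.18 in replicates 1, 2 and 3 and was thus lowest in the first library. Its gene lies on the Z sex chromosome in the RefSeq table, of which birds carry a pair in males and a single copy in females. The median of 444 genes of the Z chromosome deviated by -0.11, 0.18 and -0.09, and that of 9051 genes of other chromosomes by 0.01, -0.01 and 0. ANXA1 and the median Z gene were both below their means in replicate 1 and above them in replicate 2, and differed in sign in replicate 3. The smooth muscle and pericyte markers, of which 7 of 8 were lowest in replicate 1, as were 32.3% of all genes tested, deviated by -0.22, 0.24 and -0.01. The median of the leukocyte markers that passed 1 FPKM, 4 of 13, deviated by -0.27, 0.11 and 0.17. Of these 4, 3 were lowest in replicate 1, while BLNK, at 3.56, 2.72 and 5.06 FPKM, was lowest in replicate 2. Among the markers under the minimum, PTPRC, CSF1R, CD3E, CD4 and LCP1 were lowest in replicate 3, and SPI1 and LYZ in replicate 1. ANXA1 is known from leukocytes in mammals. Of the 13 leukocyte markers, CD8A had 0 reads in all libraries, while the T cell marker CD3D was at 5.61, 6.49 and 6.35 FPKM and the antigen presentation gene CD74 at 5.4, 14.5 and 5.67. The other T cell markers CD3E, at 0.192, 0.293 and 0.168 FPKM, and CD4, at 0.775, 1.16 and 0.353, were far lower than CD3D. The part of these cells, or of the number of Z chromosomes, in the level of ANXA1 was not tested.

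The genes nearest in level over the 3 libraries were of several kinds. Closest to ANXA2, by the root mean square difference of log2 values over 3 libraries, were FAU at 0.098, RACK1 at 0.137 and RPS28 at 0.158, all of them encoding parts of the ribosome or proteins bound to it. Closest to S100A11 were the epidermal adhesion gene PERP at 0.102, the glycolytic enzyme gene ENO1 at 0.159 and POF1B, an actin-binding gene of epithelia, at 0.162. PERP was measured at 1023, 868 and 1182 FPKM, so it too was lowest in replicate 2 and highest in replicate 3. Closest to ANXA1 were the chromatin-binding genes HMGN5 at 0.233 and HMGN2 at 0.251 and PPIB, a folding enzyme of the endoplasmic reticulum, at 0.239, at a greater distance than for the other two. The measure combines level and spread and rests on 3 libraries.

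Few other members of both families had a row under their symbol, 2 of 9 further annexins and 5 of 17 further S100 genes listed. Members under an identifier that took no symbol would not have been found. Of 2 further annexins with a row, ANXA4, an annexin of epithelia, was at 87.4, 110 and 100 FPKM and 2.89 above the median gene on the log2 scale (limma adjusted p = 2.1e-06), and so lay between ANXA5 and ANXA11. ANXA10 had 0 reads in all libraries. Of 5 further S100 genes, S100A16 was at 950, 897 and 844 FPKM, near S100A11, and 6.07 above the median gene on the log2 scale (limma adjusted p = 2.3e-07). S100B, a marker of Schwann and lamellar cells, was at 13.2, 13.4 and 5.65 FPKM from 878, 877 and 306 reads. It was low in replicate 3 and was not called apart from the median gene (log2 -0.4, limma adjusted p = 0.19). With a minimum of 5 FPKM it was called below (log2 -1, limma adjusted p = 0.0078), and without replicate 3 the difference was 0.03. S100Z was at 0.19, 0.968 and 0.175 FPKM and S100P had 0 reads.

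Of 26 listed binding partners 23 had a row and 21 were tested, with 16 above the median gene and 5 lower than it, beside 43.7% and 43.6% of all genes tested. The list's median among genes tested was 46.7 FPKM. The partners of ANXA11 and ANXA7 among the calcium sensors of the penta-EF-hand family were all above the median gene. PDCD6 was at 69.4, 75.8 and 70.6 FPKM, SRI (sorcin) at 33.8, 45.4 and 42, and PEF1 at 30.5, 37 and 44.7. PDCD6 therefore stood a little above ANXA11, and SRI close to ANXA7. SEC31A, a coat protein of vesicles leaving the endoplasmic reticulum, was at 42.6 ± 0.439 FPKM, and TSG101, of the endosomal sorting machinery, at 35.6 ± 1.26. Of the RNA granule proteins, G3BP1 was at 85.1 ± 6.15 and TIA1 at 66.6 ± 2.95 FPKM.

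The scaffold gene AHNAK, whose protein is bound by the complex of ANXA2 and S100A10 in mammals, was at 61.1, 44.7 and 48.6 FPKM. An identifier that the RefSeq table pairs with AHNAK2 was at 113, 106 and 88.3 FPKM. Both scaffold genes were above the median gene. They were highest in replicate 1, as were 7 of 21 binding partners tested and 3511 of 10605 genes tested. Of the actin regulators, DSTN (destrin) was at 592 ± 51.5 FPKM, the highest of the list, and CTTN (cortactin) at 97.8 ± 9.78. The identifier paired with TLN1 (talin) was below the median gene at 4.56 ± 1.79 FPKM, a call lost without a minimum on FPKM (log2 -0.64, limma adjusted p = 0.056). Its level rests on 131, 72 and 54 reads over a gene model of 628 bases, as implied by count and FPKM. Whether that model covers the whole talin gene was not tested, so the value may not give the level of talin. CACYBP, known as a target of S100A6, was at 90.1, 89.1 and 90.1 FPKM and SUGT1, a cochaperone that also binds S100A6, at 78.2, 64.4 and 69.4.

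Among signalling partners, the cell surface proteoglycan gene SDC4 was at 99.5 ± 11.6 and the growth factor receptor gene EGFR at 31 ± 7.8 FPKM, both above the median gene. EGFR was lowest in replicate 2, at 22.1 FPKM. So were 36.6% of all genes tested, 9 of 21 binding partners tested and 16 of 20 keratinocyte markers. Both listed partners of ANXA6 in Ras and protein kinase C signalling were below the median gene, PRKCA at 8.83 ± 0.771 FPKM and the identifier paired with RASA1 at 9.97 ± 1.34. The call of RASA1 (log2 -0.41, limma adjusted p = 0.012) was lost without replicate 1 (adjusted p = 0.079) or 3 (adjusted p = 0.084). PLA2G4A, the cytosolic phospholipase that ANXA1 inhibits in mammals, was at 11.3, 11.4 and 11.2 FPKM and just passed the test (log2 -0.22, limma adjusted p = 0.0497), a call lost whichever replicate was left out (adjusted p = 0.11 to 0.21). The plasminogen activator gene PLAT was below the median at 3.67 ± 0.724 FPKM, PRKCB was at 0.214 ± 0.0409 FPKM and PLG, with a mean of 0.022 FPKM, was under the minimum.

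Lists of processes in which annexins act were described in the same fit. Of 16 membrane repair and ESCRT-III genes tested, 12 were above the median gene and 2 below, and the same shares of 43.7% and 43.6% of all genes apply to this and the next list. The highest were CAVIN2 at 229 ± 29.6, CAV1 at 141 ± 39.7, CHMP4B at 121 ± 15.6 and CHMP6 at 114 ± 12.4 FPKM, of which CAVIN2 and CAV1 build caveolae and the others the membrane-cutting ESCRT-III polymer. Of 14 calmodulin and EF-hand sensor genes tested, 13 were above and 1 was below, led by CALM2 at 554 ± 97, and with RCN2 at 97.9 ± 15.8 and VSNL1 at 93.4 ± 5.85 FPKM. ANXA2 and S100A11 thus each had a higher mean level than CALM2, which encodes calmodulin. Of these 14, 10 were highest in replicate 2, as were 34% of all genes tested.

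Of 16 genes tested for moving phosphatidylserine and other lipids between membrane leaflets, 5 were above the median gene and 8 below, beside 43.7% and 43.6% of all genes tested. The highest were VMP1 at 53.7 ± 5.75, TMEM41B at 43.8 ± 3.31, the flippase subunit gene TMEM30A at 42 ± 2.13 and ATP11B at 33.1 ± 1.08 FPKM. Of 24 genes listed for the cornified envelope and its cross-linking, only 6 had a row and 5 were tested. Of these 5, 4 were above the median gene and 0 below, beside 43.7% and 43.6% of all genes tested. The 4 were the cell cycle regulator SFN at 1810 ± 131, the envelope scaffold genes PPL at 108 ± 2.79 and EVPL at 52.5 ± 6.21, and the lipid transporter gene ABCA12 at 45.3 ± 8.97 FPKM. TGM2, a transglutaminase, the class of enzyme that cross-links annexins and S100 proteins into the envelope, was not called apart from the median gene (limma adjusted p = 0.44), at 15.3, 14.3 and 7.01 FPKM. TGM4 was at 0.415, 0.648 and 2.05 FPKM, under the minimum. The other transglutaminases listed, TGM1, TGM3 and TGM5, had no row under their symbol, so their level is not known here.

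**Figure D4:**
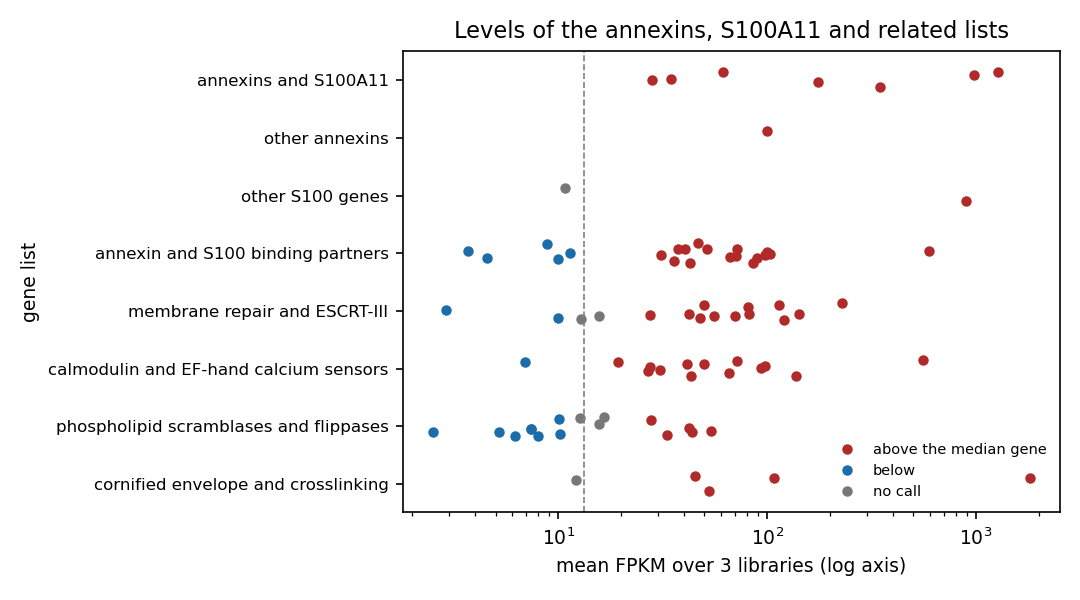
Mean FPKM over 3 libraries (log axis) of each gene tested, by list, coloured by whether limma's test placed it above or below the median gene (dashed line, 13.3 FPKM) or made no call; points are shifted up and down at random for legibility. The annexins and S100A11 are all above, whereas the scramblase and flippase list has 5 above and 8 below.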

How the data were processed

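Bill skin was dissected and frozen, RNA isolated with TRIzol and strand-specific libraries made with the KAPA mRNA Hyper Prep kit from oligo-dT purified RNA (per the labels' protocols). Per the file headers, the authors deposited raw counts and FPKM. Tools listed in the submitters' processing notes, with no role stated, are edgeR 3.22.3, Subread 1.6.2 with featureCounts, STAR 2.5.4b, Trimmomatic 0.36 and CASAVA 1.8.2. Genome build and annotation: not given in the sources used here. With edgeR's TMM factors (0.978, 1.01 and 1.01) the length implied by count and FPKM was whole, within 0.01 bases, for 100% of 14343 genes with reads, so FPKM carry that scaling.

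Each gene's log2(FPKM + 0.1), minus that of the median gene of the library, was tested with limma 3.58.1 in R 4.3.3, two-sided, over the 10605 genes that reached 1 FPKM in each of the 3 libraries, with Benjamini-Hochberg adjustment over all of them and a threshold of 0.05. Having 1 group, the study gives no contrast for a count test; edgeR 4.0.16 and DESeq2 1.42.0 served for scaling. Neighbours in level were called apart if ordered alike in all libraries and separated by more than 2 SD. Of 3347 identifiers without a symbol, 730 took one by gene number from the RefSeq table. That table was used for names, chromosome and overlap of genes only. Genes, lists and tests were chosen with earlier results of these data known. Named are all genes measured of the families and partners, the 4 highest of each other list and the 3 nearest genes of the 3 highest; a few genes so chosen are left out here. Markers named were chosen after their values were seen, as were TGM2, TGM4 and the comparison with Z-linked genes. Alternatives covered pseudocount, minimum, reference, variance prior, scaling, length and each replicate. Counts cover 25268141 to 32247700 reads per library, and reads shared between paralogs may have been dropped. Figures used Python 3.11.15 and matplotlib 3.10.9.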

Additional observations from a re-analysis of the deposited data

How the results depend on the processing

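All 7 genes tested stayed above the median gene under each alternative pseudocount, minimum, reference and variance prior and without each replicate. Without a minimum on FPKM, 1 gene, ANXA13, was below it, because ANXA13 then entered the test. That setting lowers the median gene, and PLA2G4A (log2 0.72), RASA1 (0.53) and PRKCA (0.36) then lay above it, S100B (0.54) was not called and TLN1 (-0.64) was no longer called below. With 1 replicate left out, S100B ranged from -0.6 without replicate 2 to 0.03 without replicate 3. The summed share was 0.327% when taken over counted reads, and the ratio of S100A11 to ANXA1 was 1.04 and to ANXA2 0.249 when taken over counts, since S100A11 has the shortest gene model of the 8. Of the other 56 recomputed summaries, all stayed within 1.5 times the value reported, or, for values without a test, within 1 SD. Of 421 recomputed differences of single genes, 407 kept their direction and side of the threshold. Leaving out 1 replicate gave 5 to 6 of 7 neighbours apart. These 7 pairs include ANXA6 over ANXA13, which was apart in each case although ANXA13 was hardly detected. Without that pair, 5 of 6 were apart with all libraries. Leaving out 1 replicate also gave a share of 0.48 to 0.521%, a median SD of 0.0932 to 0.152, and ratios of 2.49 to 3.35 and 0.734 to 0.788. No paired analysis was possible because the study has 1 group. Depth limits ANXA13, whose 0 to 2 reads allow no fold.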
